A study of Rattus norvegicus with 6 samples.

Results

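The Slc25 family of mitochondrial carriers was described in RNA sequencing of neonatal rat ventricular myocytes (NRVM), cultured muscle cells of the newborn rat heart. The members were all rows of the expression table whose symbol begins with Slc25a, which gave 37 of 13843 rows, each symbol once. Members were chosen by name and not by their values, although earlier results of these data were known. The 6 libraries fall into 3 groups of 2, and all cultures had 3 days of phenylephrine (PE), which stimulates alpha-1 adrenergic receptors and makes cardiomyocytes in culture grow. The PE+TSA+shJIP1 group received PE, TSA and a short hairpin RNA against JIP1. The PE+TSA group received PE, TSA and a control hairpin, and the PE group received PE and the control hairpin. TSA is the usual abbreviation of the histone deacetylase inhibitor trichostatin A, which the labels do not spell out, and JIP1 is a scaffold of the JNK kinase cascade encoded by Mapk8ip1. The labels call the JIP1 samples knockouts in one field and hairpin-treated in another. Whether the 2 libraries of a group are separate cultures is not stated, and p-values therefore reflect only how far these samples differ, which can be technical. Untreated cells, and the JIP1 hairpin without TSA, were not analysed here.

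Slc25 carriers are small membrane proteins built from a repeated domain, and most sit in the inner mitochondrial membrane. They move nucleotides, phosphate, metals, carboxylates, amino acids, acylcarnitines and cofactors between cytosol and matrix. In the heart, the adenine nucleotide translocases export ATP made by oxidative phosphorylation, the phosphate carrier supplies its phosphate, and the oxoglutarate carrier takes part in the malate-aspartate shuttle that brings reducing equivalents into the matrix.

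Values are FPKM, which scale read numbers to the length of the transcript and the depth of the library. The steps between low values put the depth of PE replicate 2 at 0.048 of that of PE replicate 1, and the other 4 libraries at 0.722 to 1.34 of it. Absolute depth is unknown, so no counting interval is given. Mapk8ip1, the gene the hairpin targets, was at 1.80 and 3.65 FPKM in PE+TSA+shJIP1, 14.6 and 17.9 FPKM in PE+TSA, and 3.77 and 4.39 FPKM in PE. All 9 cardiomyocyte markers examined (among them Tnnt2, Actc1 and Ryr2) were detected, with summed levels of 11032 and 5929 FPKM in PE+TSA+shJIP1, 11731 and 5849 FPKM in PE+TSA, and 25875 and 21017 FPKM in PE. The summed level of 8 fibroblast markers was 564 and 675 FPKM in PE+TSA+shJIP1, 523 and 728 FPKM in PE+TSA, and 1048 and 1702 FPKM in PE. That of 7 smooth muscle and pericyte markers was 512 and 490 FPKM in PE+TSA+shJIP1, 394 and 251 FPKM in PE+TSA, and 1637 and 1317 FPKM in PE. Each of these 3 sums was thus higher in PE than in the other groups. Endothelial and macrophage markers stayed between 9.53 and 38.8 FPKM in sum, and Col1a2, Tie1, Vwf and Ptprc were under 1 FPKM in every library. In bulk RNA, fewer cells of a type and less RNA per cell cannot be told apart, and the part of cell makeup in the results below was not tested.

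A pair of carriers made up most of the family's message. Slc25a4 and Slc25a3 together held 81.0% and 80.2% of the summed FPKM of the 37 rows in PE+TSA+shJIP1, 73.5% and 68.5% in PE+TSA, against 74.0% and 73.4% in PE. They were the only members with a mean over 100 FPKM, while 12 others averaged 10 to 100 FPKM and 15 averaged 1 to 10 FPKM. The whole family summed to 1787 and 1737 FPKM in PE+TSA+shJIP1, 1740 and 1415 FPKM in PE+TSA, and 1953 and 1542 FPKM in PE. These sums overlapped between all groups. In the shallow PE replicate 2, 10 members were listed at 0, and 5 of these were listed at 0 in no other library.

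**Figure D1:**
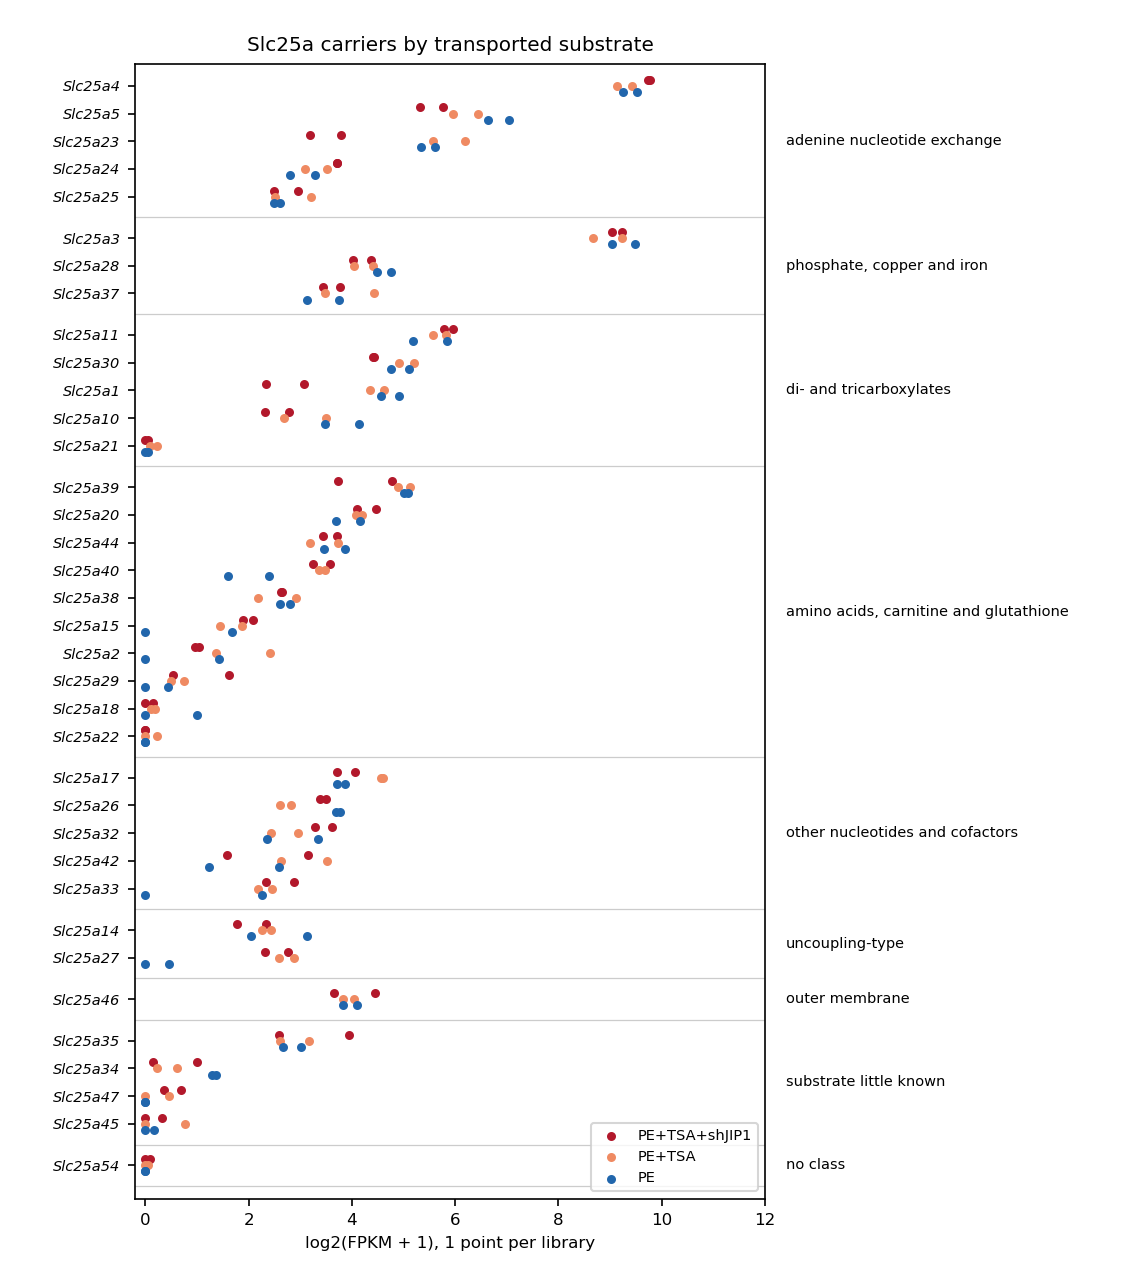
Level of 36 of the 37 Slc25a rows, as log2(FPKM + 1) on the horizontal axis, with 1 point per library and rows ordered by substrate class and mean level. Slc25a4 and Slc25a3 stand far to the right of the others, and the red points of Slc25a23 and Slc25a1 lie left of the points of the other groups.

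Tests used limma on log2(FPKM + 1), a scale that understates the change of low genes, over 10359 features that averaged 1 FPKM or more. Of the Slc25a rows 29 passed this filter and 8 did not (Slc25a18, Slc25a21, Slc25a22, Slc25a29, Slc25a34, Slc25a45, Slc25a47 and Slc25a54). P-values were adjusted over all 10359 features by Benjamini and Hochberg with a threshold of 0.05.

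In PE+TSA+shJIP1 against PE, 4 of the 29 carriers passed. Slc25a1, Slc25a5 and Slc25a23, which carry citrate, ADP and ATP, and ATP-magnesium, fell, and Slc25a27, the brain-type uncoupling protein UCP4, rose. Of all features, 8.27% passed in this comparison, 4.16% downward and 4.11% upward. The median log2 change of the 29 carriers was 0.09, against 0.10 for all features tested, and 14 of the 29 had groups that did not overlap, against 60.6% of all features. These calls rested on the spread shared by all 6 libraries. In a fit of the PE+TSA+shJIP1 and PE libraries alone 0 of the 29 passed, where 4 of all 10359 features did. The main fit called 857 of all features, so this loss was not particular to the carriers. With each of the 6 libraries left out, the log2 change ranged from -2.405 to -1.68 for Slc25a1 and -1.53 to -1.09 for Slc25a5. It ranged from -2.29 to -1.68 for Slc25a23 and from 2.08 to 2.54 for Slc25a27. Leaving out PE replicate 1 keeps the shallow PE replicate 2, where Slc25a27 was listed at 0, as the only PE library. The log2 change was then -2.21 for Slc25a1, -1.10 for Slc25a5, -1.86 for Slc25a23 and 2.54 for Slc25a27. Fits with a library left out are given for the size of the change only, and do not show that the 4 calls hold.

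In PE+TSA+shJIP1 against PE+TSA, which shows the hairpin's effect on a background of TSA, 0 of the 29 carriers passed, where 0.29% of all features did. At an unadjusted p under 0.05 there were 5 carriers (Slc25a1, Slc25a17, Slc25a23, Slc25a26 and Slc25a30), against 14.9% of all features. The lowest p values belonged to Slc25a23 and Slc25a1, both lower with the hairpin. The groups did not overlap for 12 of the 29 carriers, and for 50% of all features. The median log2 change was -0.02 for the carriers and -0.003 for all features.

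In PE+TSA against PE, the effect of TSA, 0 of the 29 carriers passed, where 0.811% of all features did. At an unadjusted p under 0.05 there were 4 (Slc25a17, Slc25a26, Slc25a27 and Slc25a40), against 18.7% of all features. The groups did not overlap for 8 of the 29 carriers, against 50.6% of all features. The median log2 change was 0.05 for the carriers and 0.10 for all features. The 3 comparisons share libraries pairwise, so their values are set side by side without a test of how they relate.

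**Figure D2:**
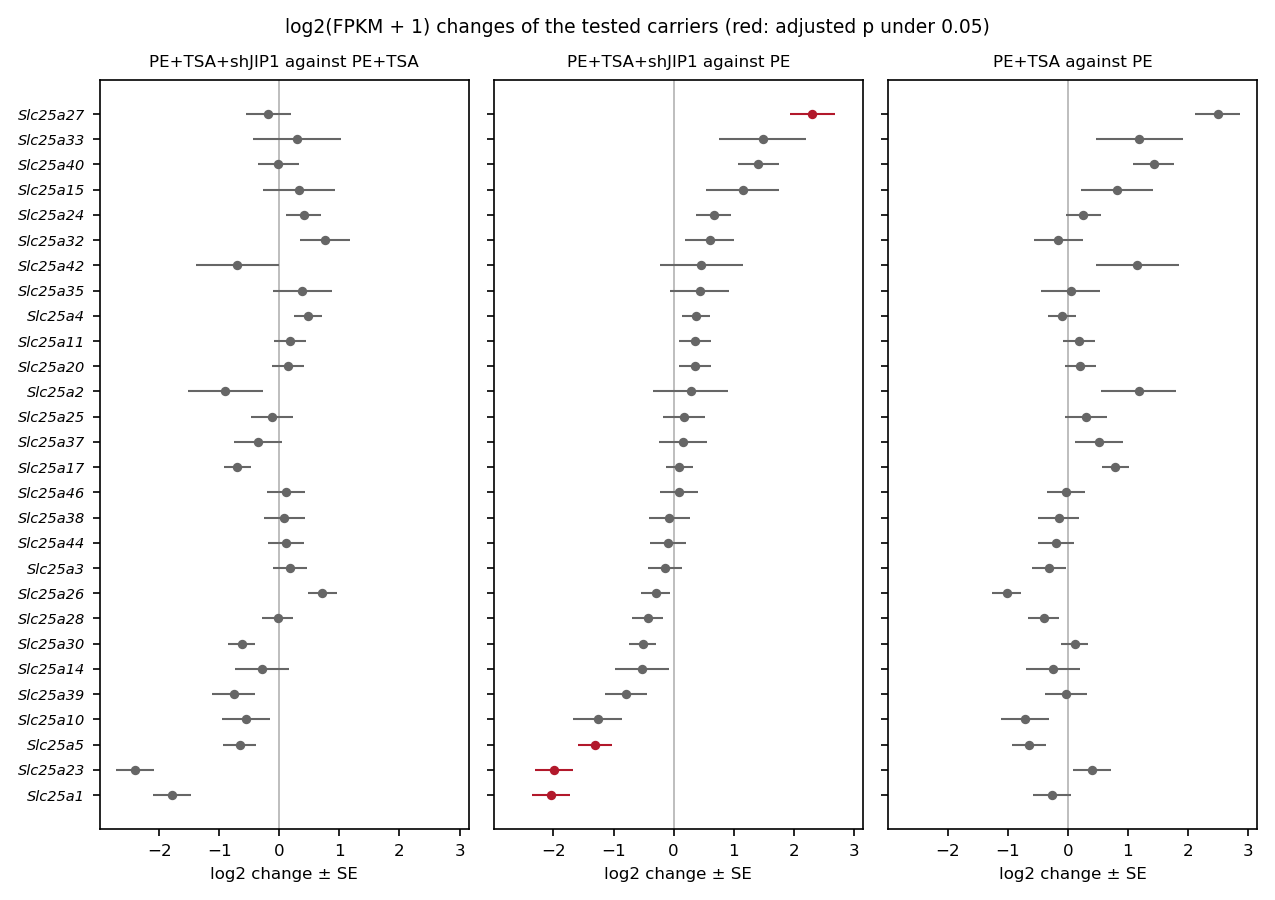
Change of 28 of the 29 tested carriers on the log2(FPKM + 1) scale with its limma standard error, in the 3 comparisons, ordered by the change in PE+TSA+shJIP1 against PE. Slc25a27 is at the top and Slc25a23 and Slc25a1 at the bottom of the middle panel, where the 4 red points passed the threshold, while no point of the outer panels is red.

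The adenine nucleotide translocases swap ADP from the cytosol for ATP from the matrix, and Slc25a4 (ANT1) is the form typical of heart and skeletal muscle, whereas Slc25a5 (ANT2) is more widespread and is found in dividing cells. Slc25a4 was the most abundant carrier, at 849 and 872 FPKM in PE+TSA+shJIP1, 682 and 561 FPKM in PE+TSA, and 729 and 604 FPKM in PE. Both hairpin libraries lay above the other 4, but no comparison passed (limma adjusted p from 0.318 to 0.836). Slc25a5 was at 53.1 and 38.8 FPKM in PE+TSA+shJIP1, 85.7 and 61.3 FPKM in PE+TSA, and 131 and 98.8 FPKM in PE. The 3 groups did not overlap, with PE+TSA+shJIP1 lowest and PE highest. Slc25a5 fell in PE+TSA+shJIP1 against PE (log2 change -1.31 ± 0.28 SE, limma adjusted p = 0.0423). The single steps did not pass, at -0.66 ± 0.28 with the hairpin (adjusted p = 0.342) and -0.65 ± 0.28 with TSA (adjusted p = 0.281). The cardiomyocyte, fibroblast and smooth muscle marker sums given above were also higher in PE than in the other groups, and their part in the change of Slc25a5 was not tested.

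FPKM is per length, so levels of paralogs can be set side by side within a library. Slc25a5 made up 5.88% and 4.27% of the Slc25a4 and Slc25a5 total in PE+TSA+shJIP1, 11.2% and 9.85% in PE+TSA, against 15.3% and 14.1% in PE. The share was lowest in PE+TSA+shJIP1 and highest in PE, with no overlap between any groups. It differed by -9.59 percentage points between PE+TSA+shJIP1 and PE, by -5.44 between PE+TSA+shJIP1 and PE+TSA, and by -4.15 between PE+TSA and PE. The exact two-sided permutation p was 0.333 in each case (0.444 adjusted over 12 tests of 4 shares), which is the smallest that 2 libraries against 2 allow.

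**Figure D3:**
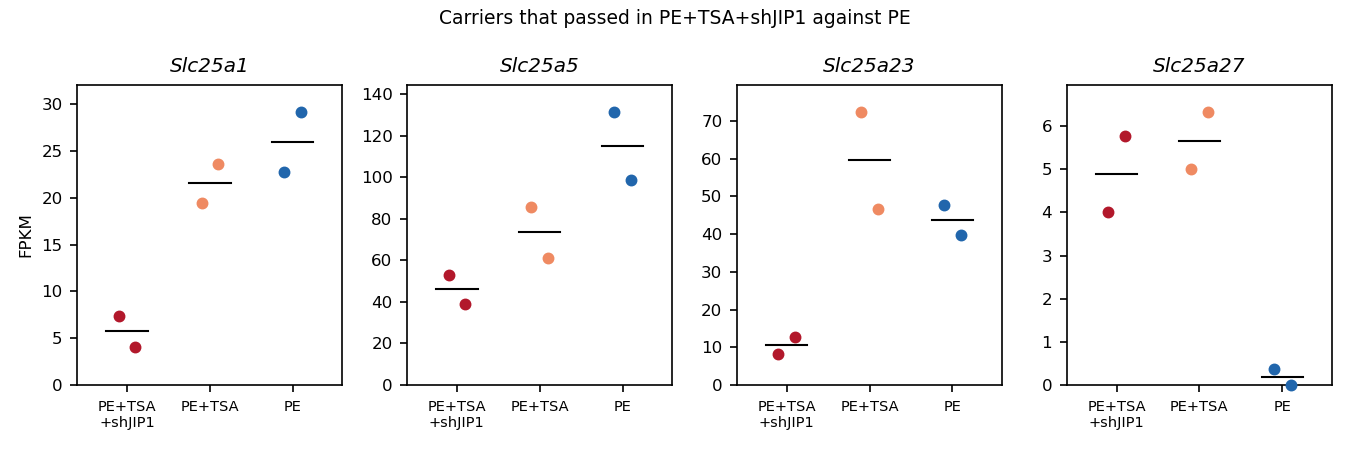
FPKM of the 4 carriers that passed in PE+TSA+shJIP1 against PE, with 1 point per library and a bar at the mean of the group. Slc25a1 and Slc25a23 are low in the 2 hairpin libraries only, Slc25a5 is lowest there and highest in PE, and Slc25a27 is near 0 in PE only.

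Slc25a23, Slc25a24 and Slc25a25 are the calcium-regulated carriers that exchange ATP-magnesium for phosphate and so set the adenine nucleotide content of the matrix. Slc25a23 was at 8.10 and 12.9 FPKM in PE+TSA+shJIP1, 72.4 and 46.7 FPKM in PE+TSA, and 47.7 and 39.7 FPKM in PE. Both hairpin libraries were below every other library, and the PE+TSA and PE libraries overlapped. Slc25a23 fell in PE+TSA+shJIP1 against PE (log2 change -1.99 ± 0.32 SE, limma adjusted p = 0.0235). Against PE+TSA the change was larger, -2.40 ± 0.32, but it did not pass (unadjusted p = 0.000219, adjusted p = 0.0607). With trimmed-mean scaling or quantile normalization of the libraries it did pass (adjusted p = 0.0487 and 0.0445).

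Slc25a24 was not lower in the hairpin libraries, with 12.1 and 12.1 FPKM in PE+TSA+shJIP1, 10.4 and 7.52 FPKM in PE+TSA, and 8.73 and 5.96 FPKM in PE (adjusted p from 0.179 to 0.651). Slc25a25 ranged from 4.63 to 8.20 FPKM over the libraries (adjusted p from 0.652 to 0.902). Slc25a24 therefore held 44.9% and 40.8% of the summed FPKM of the 3 paralogs in PE+TSA+shJIP1, 11.9% and 12.1% in PE+TSA, against 14.2% and 11.9% in PE. The hairpin libraries stood apart from the other 4 by 30.9 percentage points against PE+TSA and 29.8 against PE (exact permutation p = 0.333, 0.444 adjusted over the 12 tests). In PE+TSA and PE, most message of this carrier group came from Slc25a23, and in the hairpin libraries Slc25a24 was about level with it.

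**Figure D4:**
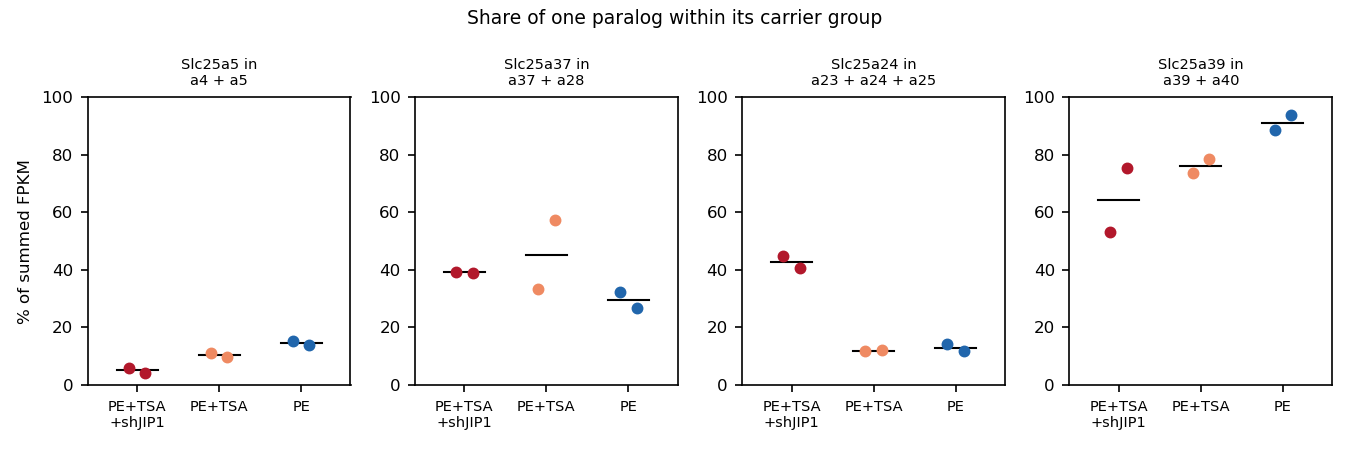
Share of the first-named paralog in the summed FPKM of its carrier group, in percent, with 1 point per library and a bar at the mean. Slc25a5 takes 4.27% to 15.3% of its pair, Slc25a24 takes more than 40% of its group in the hairpin libraries and under 15% elsewhere, and Slc25a39 is highest in PE.

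Slc25a3, the phosphate carrier, which also brings copper into the matrix, was at 597 and 521 FPKM in PE+TSA+shJIP1, 597 and 409 FPKM in PE+TSA, and 716 and 528 FPKM in PE. Its groups overlapped in every comparison (limma adjusted p from 0.576 to 0.828). The mitoferrins bring iron in for heme and iron-sulfur cluster synthesis. Slc25a28 (mitoferrin 2) ranged from 15.1 to 26.0 FPKM and Slc25a37 (mitoferrin 1), known for its role in red cell precursors, from 7.79 to 20.7 FPKM, and neither passed (adjusted p from 0.305 to 0.974). Slc25a37 held 39.4% and 39.1% of the mitoferrin total in PE+TSA+shJIP1, 33.3% and 57.4% in PE+TSA, against 32.4% and 26.7% in PE. The PE+TSA libraries differed more from each other than the hairpin group did from PE. The share differed by 9.69 percentage points between PE+TSA+shJIP1 and PE and by 15.8 between PE+TSA and PE (exact permutation p = 0.333 for each), and by -6.10 between PE+TSA+shJIP1 and PE+TSA (exact permutation p = 1).

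Among the tested carboxylate carriers, Slc25a1 had the largest change in both comparisons of PE+TSA+shJIP1, while in PE+TSA against PE that of Slc25a10 was larger (-0.72 ± 0.40, limma adjusted p = 0.386). Slc25a1 exports citrate, the source of cytosolic acetyl-CoA for fatty acid and sterol synthesis. Slc25a1 was at 7.38 and 4.06 FPKM in PE+TSA+shJIP1, 19.5 and 23.6 FPKM in PE+TSA, and 22.8 and 29.2 FPKM in PE. Both hairpin libraries were below every other library, and the PE+TSA and PE libraries overlapped. Slc25a1 fell in PE+TSA+shJIP1 against PE (log2 change -2.04 ± 0.32 SE, limma adjusted p = 0.0221). Against PE+TSA it was at -1.79 ± 0.32 (unadjusted p = 0.00113, adjusted p = 0.0923), and TSA alone gave -0.25 ± 0.32 (adjusted p = 0.685).

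Slc25a10, which exchanges malate and succinate for phosphate, was at 3.97 and 5.87 FPKM in PE+TSA+shJIP1, 5.43 and 10.4 FPKM in PE+TSA, and 16.6 and 10.2 FPKM in PE. The hairpin libraries lay below the PE libraries, at -1.27 ± 0.40 on the log2 scale (limma adjusted p = 0.0961), and PE+TSA overlapped with both other groups. Slc25a11, the oxoglutarate carrier of the malate-aspartate shuttle, was at 60.9 and 54.4 FPKM in PE+TSA+shJIP1, 55.5 and 46.8 FPKM in PE+TSA, and 56.3 and 35.3 FPKM in PE. Its groups overlapped in every comparison (adjusted p from 0.402 to 0.822). The aspartate/glutamate carriers of the same shuttle, Slc25a12 and Slc25a13, were not analysed here. Slc25a30, a carrier first described in kidney and placed with the carboxylate carriers here, was at 20.3 and 20.6 FPKM in PE+TSA+shJIP1, 28.9 and 35.6 FPKM in PE+TSA, and 33.5 and 26.1 FPKM in PE. Both hairpin libraries were lowest, with -0.63 ± 0.23 against PE+TSA (unadjusted p = 0.0309, adjusted p = 0.279). Slc25a21, the oxodicarboxylate carrier, did not exceed 0.169 FPKM.

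Of the carriers of amino acids, carnitine and glutathione, 7 were tested and none of them passed in any comparison (limma). Slc25a20 exchanges acylcarnitines for carnitine and so admits long-chain fatty acids to oxidation. It was at 16.2 and 21.2 FPKM in PE+TSA+shJIP1, 16.0 and 17.3 FPKM in PE+TSA, and 16.9 and 12.01 FPKM in PE, with overlap in every comparison (adjusted p from 0.397 to 0.848).

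Slc25a39 and Slc25a40 import glutathione into mitochondria. Slc25a40 was at 10.9 and 8.49 FPKM in PE+TSA+shJIP1, 10.2 and 9.26 FPKM in PE+TSA, and 4.23 and 2.04 FPKM in PE. All 4 libraries with TSA were above the PE libraries, by 1.41 ± 0.35 on the log2 scale in PE+TSA+shJIP1 (limma adjusted p = 0.0573) and by 1.43 ± 0.35 in PE+TSA (unadjusted p = 0.00559, adjusted p = 0.125). The first of these differences passed with the replicate number as a block (adjusted p = 0.0460). It did not pass with another pseudocount, filter or scaling, or with only the groups compared (limma adjusted p from 0.05003 to 0.1195). With each library left out, it ranged from 1.02 to 1.805. The largest value came without PE replicate 1, where the shallow PE replicate 2 is the only PE library. Slc25a39 was at 12.3 and 26.3 FPKM in PE+TSA+shJIP1, 28.8 and 34.1 FPKM in PE+TSA, and 33.0 and 31.0 FPKM in PE (adjusted p from 0.190 to 0.975). Slc25a39 held 53.1% and 75.6% of the pair's FPKM in PE+TSA+shJIP1, 73.8% and 78.6% in PE+TSA, against 88.6% and 93.8% in PE. The PE libraries had the highest shares, while the hairpin and PE+TSA libraries overlapped. The exact permutation p was 0.333 for PE+TSA+shJIP1 against PE (-26.9 percentage points) and for PE+TSA against PE (-15.0), and 0.667 for PE+TSA+shJIP1 against PE+TSA (-11.9).

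The other members of this class are given by their range over the libraries. Slc25a44, a branched-chain amino acid carrier, lay between 8.18 and 13.6 FPKM, and Slc25a38, a glycine carrier needed for heme synthesis, between 3.57 and 6.57 FPKM. The ornithine carriers Slc25a15 and Slc25a2 did not exceed 3.25 and 4.37 FPKM, and both were listed at 0 in PE replicate 2. The glutamate carriers Slc25a18 and Slc25a22 were near the floor of the table, at no more than 0.994 and 0.168 FPKM, and Slc25a29, a carrier of basic amino acids, reached 2.06 FPKM in 1 library.

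The carriers of other nucleotides and cofactors had 6 members, all tested. Slc25a17 serves peroxisomes, where it carries coenzyme A and related cofactors. It was at 15.6 and 12.2 FPKM in PE+TSA+shJIP1, 22.8 and 23.3 FPKM in PE+TSA, and 12.2 and 13.6 FPKM in PE. The 2 PE+TSA libraries were above the other 4, by 0.79 ± 0.23 on the log2 scale against PE (unadjusted p = 0.0122, limma adjusted p = 0.159), and PE+TSA+shJIP1 was at -0.70 ± 0.23 against PE+TSA (unadjusted p = 0.0207, adjusted p = 0.242). Slc25a26, which imports the methyl donor S-adenosylmethionine, had the opposite order. It was at 9.37 and 10.2 FPKM in PE+TSA+shJIP1, 6.11 and 5.09 FPKM in PE+TSA, and 12.6 and 11.96 FPKM in PE. The 2 PE+TSA libraries were below the other 4, at -1.01 ± 0.24 against PE (unadjusted p = 0.00525, adjusted p = 0.125), and PE+TSA+shJIP1 was at 0.71 ± 0.24 against PE+TSA (unadjusted p = 0.0243, adjusted p = 0.254). Both pairs of values use the same PE+TSA libraries.

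Slc25a32, known for folate and flavin transport, ranged from 4.13 to 11.2 FPKM, Slc25a33, a pyrimidine nucleotide carrier, from 0 to 6.39 FPKM, and Slc25a42, a coenzyme A carrier, from 1.35 to 10.4 FPKM. None of these 3 passed (adjusted p from 0.221 to 0.891). Slc25a33 was at 0 in PE replicate 2 alone.

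Slc25a27 and Slc25a14 are the uncoupling-type members best known from brain (UCP4 and UCP5). Slc25a27 was at 4.005 and 5.78 FPKM in PE+TSA+shJIP1 and 4.996 and 6.33 FPKM in PE+TSA, while in PE it was at 0.378 FPKM in replicate 1 and listed at 0 in the shallow replicate 2. All 4 libraries with TSA were above both PE libraries. Slc25a27 rose in PE+TSA+shJIP1 against PE by 2.31 ± 0.37 on the log2 scale (SE, limma adjusted p = 0.0244). With TSA alone the difference was 2.50 ± 0.37 and did not pass (unadjusted p = 0.000453, adjusted p = 0.0525). The hairpin libraries did not differ from PE+TSA beyond the spread (-0.19 ± 0.37, adjusted p = 0.864). The size of the change depends on the constant added before the logarithm, since PE is near 0, and with 0.1 in place of 1 it was 4.49 and 4.71. Slc25a14 was at 4.07 and 2.42 FPKM in PE+TSA+shJIP1, 4.37 and 3.79 FPKM in PE+TSA, and 3.11 and 7.77 FPKM in PE, with overlap in every comparison.

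Slc25a46, which sits in the outer membrane and takes part in mitochondrial shape, ranged from 11.6 to 20.8 FPKM (limma adjusted p from 0.877 to 0.974). Of the members whose substrates are little known, Slc25a35 ranged from 5.05 to 14.5 FPKM and was not called (adjusted p from 0.581 to 0.965). Slc25a34 was low everywhere, at 1.01 and 0.105 FPKM in PE+TSA+shJIP1, 0.170 and 0.533 FPKM in PE+TSA, and 1.44 and 1.58 FPKM in PE. Slc25a45, Slc25a47 and Slc25a54 stayed below 1 FPKM in every library and were listed at 0 in 3, 3 and 4 of the 6.

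The promoters shown are those of the 4 carriers that passed the adjusted p threshold in PE+TSA+shJIP1 against PE. Promoter sequences came from RefSeq on the build GRCr8, which differs from the build rn6 of the values, and were matched by symbol for 31 of the 37 members. Each holds 250 bases before and 50 bases after the annotated start, written 5′ to 3′ on the gene's own strand. Capitals mark every match to the CCAAT box, with its letters as in the name, or to the GC box (GGGCGG), and each was searched on both strands, so a match may stand as its reverse complement. No marked matches of the 2 motifs overlap each other in these 4 promoters.
Slc25a1, chr11:96559804-96560103, plus strand: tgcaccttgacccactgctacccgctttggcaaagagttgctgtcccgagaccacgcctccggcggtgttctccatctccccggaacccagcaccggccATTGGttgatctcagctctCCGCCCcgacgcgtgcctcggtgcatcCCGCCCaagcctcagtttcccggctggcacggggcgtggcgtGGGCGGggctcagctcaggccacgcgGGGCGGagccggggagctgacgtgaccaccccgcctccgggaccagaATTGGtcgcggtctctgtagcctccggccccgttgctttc
Slc25a5, chrX:120897366-120897665, plus strand: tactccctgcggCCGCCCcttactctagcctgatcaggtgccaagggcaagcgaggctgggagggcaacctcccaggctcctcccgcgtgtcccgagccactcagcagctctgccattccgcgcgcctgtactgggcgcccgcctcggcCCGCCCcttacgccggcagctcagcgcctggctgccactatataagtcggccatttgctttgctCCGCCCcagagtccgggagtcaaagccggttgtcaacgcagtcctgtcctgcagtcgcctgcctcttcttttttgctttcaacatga
Slc25a23, chr9:1985316-1985615, minus strand: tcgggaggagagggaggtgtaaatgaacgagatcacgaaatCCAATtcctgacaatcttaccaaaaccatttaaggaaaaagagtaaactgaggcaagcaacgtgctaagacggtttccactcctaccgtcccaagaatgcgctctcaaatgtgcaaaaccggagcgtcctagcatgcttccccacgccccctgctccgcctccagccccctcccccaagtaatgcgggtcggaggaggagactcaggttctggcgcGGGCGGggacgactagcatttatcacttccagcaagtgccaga
Slc25a27, chr9:24804058-24804357, plus strand: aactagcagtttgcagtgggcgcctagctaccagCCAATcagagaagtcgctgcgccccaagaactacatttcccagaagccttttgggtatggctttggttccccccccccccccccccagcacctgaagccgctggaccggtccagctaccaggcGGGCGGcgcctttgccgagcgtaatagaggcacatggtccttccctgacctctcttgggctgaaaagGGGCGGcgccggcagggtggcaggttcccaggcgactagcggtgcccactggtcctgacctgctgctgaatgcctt

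The Slc25a1 promoter held 2 CCAAT and 4 GGGCGG matches, that of Slc25a5 held 3 GGGCGG matches and no CCAAT, that of Slc25a23 held 1 of each, and that of Slc25a27 held 1 CCAAT and 2 GGGCGG. The GC content was 68.7% for Slc25a1, 64.0% for Slc25a5, 54.3% for Slc25a23 and 63.0% for Slc25a27. The median was 60.3% over the 31 Slc25a promoters and 51.7% over all 33465 promoters in the table. CCAAT occurred in 19 of the 31 Slc25a promoters and in 37.5% of all promoters, and GGGCGG in 22 of the 31 and in 33.1% of all.

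Of 5 other motifs searched on both strands, none was found in the 4 promoters shown. TGACGTCA (a cyclic AMP element) occurred in Slc25a25 and Slc25a33 (1.83% of all promoters), and TGANTCA (an AP-1 site) in Slc25a11 and Slc25a54 (7.33%). CACGTG (an E-box) occurred in Slc25a2 and Slc25a33 (6.42%), AAGGTCA (a nuclear receptor half-site) in Slc25a34 (4.61%) and TCACNCCAC (a sterol element) in Slc25a24 (1.12%). A match is a run of letters and says nothing of binding.

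The carriers work with enzymes and import machinery that were examined as lists of other genes. These lists were chosen with earlier results of these data known, so their shares beside all features are description only. Of 11 tested enzymes that carriers feed or that feed them, 4 fell and none rose in PE+TSA+shJIP1 against PE, and the others did not pass (limma). Of all features 4.16% fell in this comparison. The median log2 change of the 11 enzymes was -0.50, against 0.10 for all features, and 11 of 11 were lower, where 44.4% of all features were lower. Got1, the cytosolic transaminase of the malate-aspartate shuttle, was at 16.7 and 14.3 FPKM in PE+TSA+shJIP1, 50.6 and 39.8 FPKM in PE+TSA, and 84.8 and 67.3 FPKM in PE. It fell against PE (log2 change -2.22 ± 0.23, adjusted p = 0.0130), with the PE+TSA libraries between the groups. Crat, the carnitine acetyltransferase, was at 9.998 and 10.2 FPKM in PE+TSA+shJIP1, 18.3 and 15.9 FPKM in PE+TSA, and 56.2 and 43.6 FPKM in PE, and fell against PE (-2.19 ± 0.23, adjusted p = 0.0127).

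Cpt1b, the muscle carnitine palmitoyltransferase that makes the acylcarnitines carried by Slc25a20, was at 9.34 and 9.41 FPKM in PE+TSA+shJIP1, 18.3 and 17.7 FPKM in PE+TSA, and 29.9 and 34.2 FPKM in PE. It fell against PE (log2 change -1.67 ± 0.21, limma adjusted p = 0.0157). Acly, which splits the citrate exported by Slc25a1, was at 34.9 and 26.4 FPKM in PE+TSA+shJIP1, 44.3 and 54.8 FPKM in PE+TSA, and 76.7 and 72.6 FPKM in PE, and fell against PE (-1.27 ± 0.23, adjusted p = 0.0288). All 4 enzymes had 3 groups without overlap, with the hairpin libraries lowest and PE highest. Of the carriers next to them, Slc25a1 fell, and Slc25a11 and Slc25a20 did not pass, with no test of the difference between carriers and enzymes.

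Of 12 tested genes of the carrier import machinery, 1 fell in PE+TSA+shJIP1 against PE and none rose (limma), which is near the share of all features that fell (4.16%). This was Agk, a subunit of the inner membrane translocase for carriers, at 9.39 and 12.5 FPKM in PE+TSA+shJIP1, 12.8 and 10.5 FPKM in PE+TSA, and 22.8 and 26.8 FPKM in PE (log2 change -1.12 ± 0.25, adjusted p = 0.0489). Of 13 other tested transport genes of the mitochondrial membranes, 1 fell and none rose, again near the 4.16% of all features. This was Sfxn3, a sideroflexin, at 7.07 and 7.27 FPKM in PE+TSA+shJIP1, 9.36 and 8.29 FPKM in PE+TSA, and 17.7 and 17.7 FPKM in PE (-1.19 ± 0.23, adjusted p = 0.0333). None of 7 regulators of mitochondrial biogenesis passed in any comparison, and no gene of these lists passed in PE+TSA+shJIP1 against PE+TSA or in PE+TSA against PE. Of these 6 calls outside the family, 0 passed with only the groups compared in the fit, where 4 of all 10359 features passed. The main fit called 857 of all features. With each library left out, the log2 changes of these 6 genes lay between -2.38 (Got1) and -0.927 (Agk). That range gives sizes only and does not show that the 6 calls hold with a library left out. These checks were added after the data were seen. Agk also did not pass with a pseudocount of 0.1, no filter, quantile normalization or the replicate block (limma adjusted p from 0.0518 to 0.0749), and Acly did not pass with no filter (adjusted p = 0.0538).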

How the data were processed

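RNA was measured in 6 libraries, 2 for each of 3 groups, assigned from the sample titles. The authors deposited their values as FPKM in 1 table of 13843 rows, with no unit in its header. The submitters' processing notes name Cufflinks and the build rn6 and leave out version and role. Aligner, annotation and strandedness: not given in the sources used here. Reads of paralogs, or of genes that overlap, may thus have been split between rows.

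The members and gene lists were chosen with earlier results of these data known. Genes named with all values are every member called, the 6 members with the smallest p in each comparison, and a fixed list of main carriers (Slc25a1, Slc25a3, Slc25a4, Slc25a5, Slc25a10, Slc25a11 and Slc25a20 of those in the table). A linear model with a mean per group was fitted to log2(FPKM + 1) of 10359 features that averaged 1 FPKM or more, with limma 3.58.1 in R 4.3.3 and a prior variance that follows the level (3 residual and 3.27 prior degrees of freedom). Two-sided p-values were adjusted within each comparison (Benjamini-Hochberg). Relative depth comes from the most frequent ratio between a library's low values and those of PE replicate 1 under 0.3 FPKM, with that limit raised 1.5 times for the other libraries and 25 times for the one with most zeros, and 30 features set the value of that library. Both procedures were tested on simulated data, with the outcomes not given here. The simulated data for limma gave every library of a gene the same spread and did not model the shallow PE replicate 2. Shares of paralogs were tested by exact permutation in Python 3.11.15 with scipy 1.17.1. The share of Slc25a12 and that of Slc25a33 could not be computed from the rows used, and that of Slc25a18 was left out because the sum was under 1 FPKM. Alternatives were another pseudocount (0.1), filter (5 FPKM or none), scaling, fit, replicate block and each library left out. The values of 1 member are not reported here, although it is included in the counts, sums and medians.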

Additional observations from a re-analysis of the deposited data

How the results depend on the processing

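For PE+TSA+shJIP1 against PE, fits with a library left out are given by the size of the change only, which does not show that its calls hold. The 4 carriers called in this comparison numbered 1 with no filter (37 rows tested) and 0 with only the groups compared in the fit. Calls over all features fell from 857 in the main fit to 374 and 4 in these settings. In the JIP1 hairpin comparison 1 carrier, Slc25a23, passed with trimmed-mean scaling and 1, the same gene, with quantile normalization, and 0 passed in every other setting. In the TSA comparison 0 passed in all settings. A group left with 1 library is assumed to vary like the others. Settings for single carriers were run only for the 6 with the smallest p in each comparison, and the groups of these did not overlap. Leaving out 1 library, or changing the pseudocount, filter, fit or block, could therefore not turn their direction. Trimmed-mean scaling and quantile normalization could have turned it, and turned none. The median log2 change over the carriers ranged from -0.057 to 0.289 (TSA), -0.166 to 0.0218 (JIP1 hairpin) and -0.0588 to 0.217 (both against PE) with 1 library left out. Differences in share ranged then, in percentage points, for Slc25a37 from 3.76 to 27.8 (TSA) and -18.1 to 5.93 (hairpin), for Slc25a24 from 28.8 to 32.9 (hairpin) and 27.8 to 31.9 (both), and for Slc25a39 from -23.1 to -0.65 (hairpin) and -38.1 to -15.6 (both). The cause of these movements was not tested. Replicate numbers are shared between groups, and deviations of same-numbered libraries correlated at 0.0396 to 0.122. These correlations are weak, but noise of single libraries lowers them, so they cannot show whether the numbers pair the samples. With the replicate block 5 carriers passed in PE+TSA+shJIP1 against PE (Slc25a40 besides the 4), and 0 in the other comparisons. Of all features, 1063 passed in PE+TSA+shJIP1 against PE with the block and 857 without it. The depth of PE replicate 2 limits what can be said of carriers listed at 0 there.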

Other observations

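Family members that carry other symbols were also in the table. Ucp2, an uncoupling protein found in many tissues, was at 370 and 290 FPKM in PE+TSA+shJIP1, 403 and 388 FPKM in PE+TSA, and 420 and 392 FPKM in PE, behind only Slc25a4 and Slc25a3 by mean level. Ucp3, the muscle-type uncoupling protein, was listed at 0 in all 6 libraries. Mtch1, an outer membrane relative of the carriers, was at 86.7 and 82.9 FPKM in PE+TSA+shJIP1, 105 and 77.6 FPKM in PE+TSA, and 98.5 and 58.4 FPKM in PE. Mtch2 was at 60.6 and 54.2 FPKM in PE+TSA+shJIP1, 79.0 and 59.3 FPKM in PE+TSA, and 75.8 and 50.2 FPKM in PE. None of the 3 tested, Ucp2, Mtch1 and Mtch2, passed in any comparison (limma).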
